A study of Mus musculus with 24 samples.

Results

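The long non-coding RNAs (lncRNAs) that were well measured in mouse liver were followed across a change of housing temperature, the ablation of a group of hypothalamic neurons, and the 2 sexes. A gene was included when the deposited annotation gave it the biotype lncRNA, it lay on an autosome, and its raw count averaged at least 200 reads over the 24 libraries. The rule chose 208 of the 5234 lncRNAs it considered, out of 27802 genes in all. It used the overall mean count and no contrast between conditions, so levels are given as a description and only differences between conditions were tested. The members just inside the threshold were Gm22146 at 200.4 reads, Gm49797 at 202.8 and Gm11266 at 202.9, and the lncRNAs just outside it were Gm16973 at 199.96, A930038B10Rik at 199.3 and 4833438C02Rik at 194.6. All 208 passed the filter on low counts.

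The ablated mice had received, in the arcuate nucleus, an adeno-associated virus carrying a Cre-activated caspase 3, which kills Cre-expressing cells. Cre came from the transgene BAC-AT1A-Cre, named for the angiotensin receptor AT1R, and the cells aimed at were the AT1R-expressing subset of the hunger-promoting AgRP neurons. Ablated and control mice of both sexes lived from surgery on at 22 °C, which is cool for a mouse, or at 30 °C, near thermoneutrality, and liver was frozen 2 weeks later. At 22 °C there were 3 ablated females, 3 ablated males, 3 control females and 3 control males, all of the line Ai39 x BAC-AT1A-Cre with the genotype Halo+/-. At 30 °C there were 3 ablated females, 3 ablated males, 4 control females and 2 control males, of which 7 mice were Ai39 x BAC-AT1A-Cre, 2 were Ai9 x BAC-AT1A-Cre (R+/- or R+/+, both ablated) and 3 were BAC-AT1A-Cre. All 12 ablated mice were Cre+, against 4 of the 12 controls. No age is stated for the mice. Line and Cre were thus not balanced over temperature and treatment.

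Long non-coding RNAs are transcripts that are processed much like messenger RNAs but carry no long reading frame. Some build nuclear bodies, as Neat1 does for paraspeckles, others are the precursors of small nucleolar RNAs or microRNAs, and many lie antisense to or head to head with a protein-coding gene. In rodent liver a large set of genes differs between the sexes, and the sex-different rhythm of growth hormone secretion acting through the transcription factor STAT5 is a known control of that set. Most of the RNAs described here have no established function: 86 of the 208 bear a predicted-gene (Gm) symbol, 53 a RIKEN symbol, and 29 are known only by an identifier. The deposited counting does not state whether strand was used, and 102 of the 208 overlap another gene on the opposite strand. Without strand, reads of those lncRNAs and of their antisense partners cannot be told apart, so their values may be shared.

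The libraries held 21691653 to 34851108 reads in genes, of which the 208 lncRNAs took 0.644 to 1.308%. Mitochondrial transcripts took 13.8 to 37.3% of reads (median 19.3%) at 22 °C and 7.53 to 23.8% (median 15.7%) at 30 °C, and scaling to nuclear genes alone left 3 lncRNAs called with temperature, as in the scaling used here. The hepatocyte gene Alb lay between 41800 and 78900 CPM (reads of a gene scaled to the library's TMM-normalized total), and 8 hepatocyte genes together took 65900 to 108000 CPM. One library stood apart, control male 1 at 30 °C, a BAC-AT1A-Cre mouse with 14100 genes with reads against 16704 or more in the other libraries. For some results the value without it is given as well. In bulk tissue, fewer cells of a type and less RNA per cell cannot be told apart.

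The sequences that follow belong to the RNAs on which the results turn. Neat1 makes a long and a short transcript from 1 start, and a gene count does not tell them apart. The libraries were of poly-A RNA, and which form the Neat1 reads came from was not tested. In the GENCODE annotation of GRCm38 the long form Neat1-201 spans chr19:5824708-5845478 on the minus strand and measures 20771 bases, and the short form Neat1-202 spans chr19:5842307-5845476. The first stretch is the start of the long form, within 2 bases of the start of the short form. The second covers the last 90 bases of the short form and the next 30 bases of the long one, chr19:5842277-5842396. Its capitals mark the polyadenylation hexamer AATAAA, which lies 20 to 15 bases before the annotated end of the short form.
Neat1 start: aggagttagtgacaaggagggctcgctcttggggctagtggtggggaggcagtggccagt
Neat1 end of the short form: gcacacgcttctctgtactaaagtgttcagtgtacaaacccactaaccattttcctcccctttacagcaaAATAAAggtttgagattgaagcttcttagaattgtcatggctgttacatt

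Promoter windows from RefSeq (GRCm38.p6, from 250 bases before to 50 bases after an annotated start) were found for 117 of the 208 lncRNAs, with 171 windows. BC024386 is shown as the most abundant lncRNA (chr7:140905771-140906070, plus strand, capitals marking the first 50 transcribed bases). A further 3 windows belong to lncRNAs that were lower in females: Gm31583 (chr16:24090016-24090315, minus strand), Gm30262 (chr10:111593818-111594117, plus strand) and BC049987 (chr9:44672211-44672510, minus strand). Gm30262 has 7 windows, of which 3 hold TTCNNNGAA, the palindrome that STAT5 is known to bind, and the window shown was chosen from those 3. Its capitals mark the match, 99 to 91 bases before the annotated start of that window. In BC049987 the capitals mark the TATA box TATAAA, 30 to 25 bases before the start. The window of Gm31583 holds no TTCNNNGAA and has no capitals.
BC024386: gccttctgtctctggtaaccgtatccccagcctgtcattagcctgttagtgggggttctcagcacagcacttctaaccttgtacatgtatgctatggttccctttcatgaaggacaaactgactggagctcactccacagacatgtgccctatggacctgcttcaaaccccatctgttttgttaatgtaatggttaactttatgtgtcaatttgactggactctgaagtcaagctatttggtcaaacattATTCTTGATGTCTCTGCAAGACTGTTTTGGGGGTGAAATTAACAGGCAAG
Gm31583: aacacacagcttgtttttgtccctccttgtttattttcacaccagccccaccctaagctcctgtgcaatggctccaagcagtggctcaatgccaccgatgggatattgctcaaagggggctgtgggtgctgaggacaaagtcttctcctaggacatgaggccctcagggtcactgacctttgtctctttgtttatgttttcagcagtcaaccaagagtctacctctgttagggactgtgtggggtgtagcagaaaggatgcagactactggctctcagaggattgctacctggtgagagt
Gm30262: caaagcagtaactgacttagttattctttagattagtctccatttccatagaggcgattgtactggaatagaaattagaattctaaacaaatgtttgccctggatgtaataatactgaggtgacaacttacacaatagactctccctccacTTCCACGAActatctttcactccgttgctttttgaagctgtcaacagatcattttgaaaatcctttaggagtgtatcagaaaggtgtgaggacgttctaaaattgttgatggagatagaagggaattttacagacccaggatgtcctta
BC049987: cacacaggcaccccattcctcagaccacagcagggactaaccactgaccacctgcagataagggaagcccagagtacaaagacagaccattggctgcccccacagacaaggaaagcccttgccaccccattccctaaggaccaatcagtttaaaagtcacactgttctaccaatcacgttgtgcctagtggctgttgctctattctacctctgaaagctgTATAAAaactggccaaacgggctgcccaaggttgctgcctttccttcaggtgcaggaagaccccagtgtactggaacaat

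Gm29571, which was higher in females, holds TTCNNNGAA at 2 places of its window. Each is shown with 10 bases on either side and with the match in capitals. The first lies at chr10:25536158-25536186 and the second at chr10:25536383-25536411, both on the plus strand.
Gm29571 match 1: gctcatgcttTTCCATGAAacctgttgtg
Gm29571 match 2: tctatgtgttTTCACAGAAacccaggccc

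Mir22hg is the host transcript of miR-22. Its mature microRNAs are printed with the seed, bases 2 to 8, in capitals.
mmu-miR-22-5p: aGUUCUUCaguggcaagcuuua
mmu-miR-22-3p: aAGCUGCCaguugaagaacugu

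A few RNAs made up most of the signal. BC024386, on chr7:140485908-140487904 of GRCm39, averaged 1290 CPM (lowest library 802, highest 2100) and was also the highest per length, at a deposited FPKM of 745. Neat1 averaged 1230 CPM and Malat1, the neighbouring nuclear-speckle RNA on chromosome 19, 629 CPM. These 3 RNAs held 37.3% of all lncRNA reads of the 208, and the 10 highest held 53.5%. The other RNAs of the 10 were Gm42047 at a mean of 395 CPM, 0610005C13Rik at 259, 9130016M20Rik at 215, 1810019D21Rik at 204, C4a at 135, 4930581F22Rik at 84.4 and B630019A10Rik at 82.8.

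Per length the order was different. Gm12909, which lies head to head with the major urinary protein gene Mup3, came after BC024386 at an FPKM of 104, 9130016M20Rik reached 93.0 and Malat1 88.6, while Neat1, a very long transcript, had an FPKM of 57.5. FPKM rests on the deposited gene length, and the long and short forms of Neat1 were not measured apart, so its place per length is uncertain. The median lncRNA had an FPKM of 5.45, 53 of the 208 lay over 10, and 40 lay under 3.

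The lncRNAs differed widely in how steady they were between mice. The SD of log2 CPM within the 8 groups was 0.40 for the median lncRNA, under 0.5 for 151 of the 208, and over 1 for 9. The steadiest included Rab10os (0.14), 9130016M20Rik (0.16) and 0610005C13Rik (0.16), the last of which stayed between 215 and 325 CPM in every library. Gm43305 had the widest spread (SD 2.19, from 0 reads to 62.6 CPM). Gm42047 lay between 26.7 and 1340 CPM and Gm13775 between 3.97 and 299 CPM. Mice of 1 group differed widely in Gm42047: ablated males at 22 °C had 418, 502 and 45.7 CPM, and control females at 22 °C had 194, 557 and 1190 CPM. A total of 6 lncRNAs had no read in at least 1 library.

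**Figure D1:**
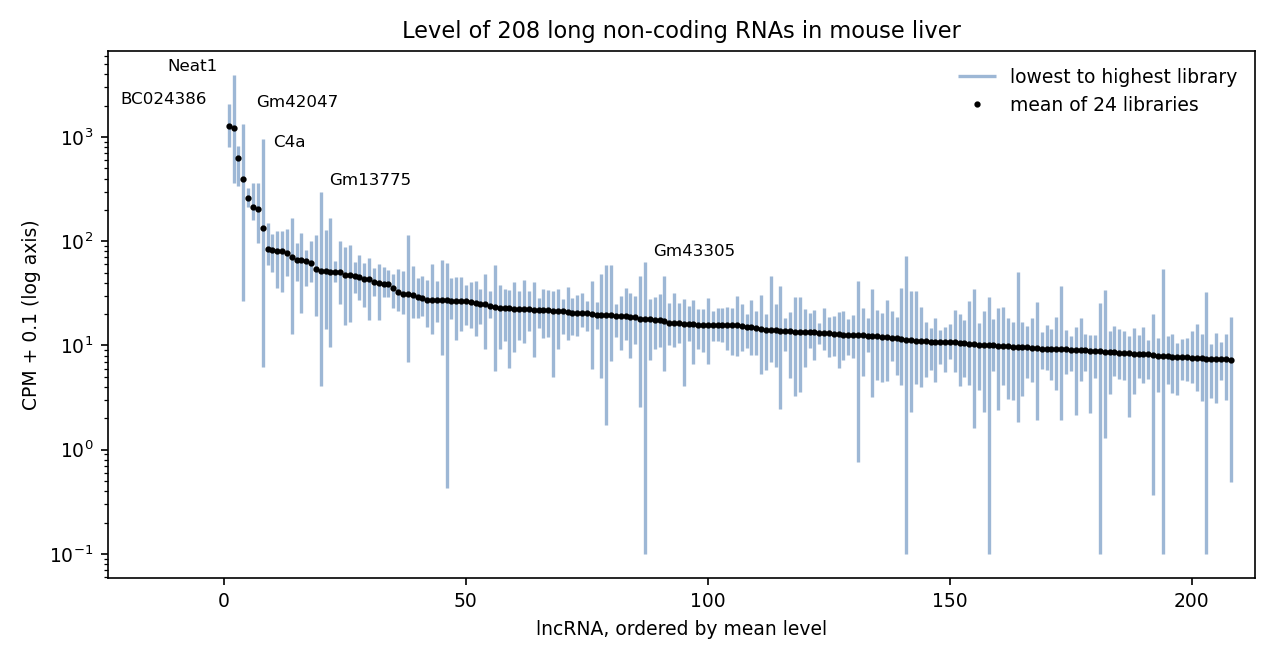
Level of each of the 208 lncRNAs, ordered by mean, as CPM plus 0.1 on a log axis. Bars run from the lowest to the highest of the 24 libraries and points are means. A handful of RNAs, led by BC024386 at 1290 CPM and Neat1 at 1230 CPM, stand above the rest, and single RNAs such as Gm42047 and Gm43305 span very wide ranges.

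The housing temperature was compared over all mice first (12 at 22 °C, 12 at 30 °C), then within ablated and within control mice. Over all mice, 3 of the 208 lncRNAs changed: Neat1 was higher at 22 °C, and 9130016M20Rik and Gm3734 were lower. A call means an adjusted p under 0.05 in edgeR's quasi-likelihood test with Benjamini-Hochberg adjustment over the 20213 genes tested. The 3 calls are 1.44% of the lncRNAs, beside 0.732% of all genes tested (0.356% higher, 0.376% lower) and 1.46% of the protein-coding genes with the same minimum mean count. The median log2 fold change of the 208 was -0.07, with 80 positive and 128 negative, against 0.04 for all genes. The count rests on few mice: it was 0 without control male 1 at 30 °C (beside 0.0847% of all genes) and 16 without control male 2 at 30 °C (beside 8.74% of all genes), the only 2 of their group.

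Neat1 is the scaffold of the paraspeckle, a nuclear body that holds RNA-binding proteins and edited RNAs. Its long and short forms were not measured apart here. At 22 °C ablated females had 1930, 2930 and 3970 CPM, ablated males 1680, 1910 and 1660 CPM, control females 707, 1000 and 1860 CPM, and control males 1060, 1110 and 1030 CPM. At 30 °C ablated females had 1450, 877 and 409 CPM, ablated males 812, 664 and 724 CPM, control females 523, 497, 359 and 696 CPM, and control males 510 and 1210 CPM. Each of the 12 livers at 22 °C lay above the mean of the livers at 30 °C of the same treatment and sex, and in ablated mice the lowest liver at 22 °C (1660 CPM) exceeded the highest at 30 °C (1450 CPM). In control mice the ranges overlapped.

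The log2 fold change of Neat1, 22 °C over 30 °C, was 1.11 ± 0.20 (SE) over all mice, with an adjusted p of 0.0202 by edgeR. It was 1.47 ± 0.28 within ablated mice (adjusted p 0.0563) and 0.76 ± 0.29 within control mice (adjusted p 0.318), neither of which passed. The 4 highest values of Neat1 were those of ablated mice at 22 °C, but its ablation effect there was 1.01 ± 0.28 (adjusted p 0.242), at 30 °C 0.29 ± 0.29 (adjusted p 0.90), and the difference of the effects 0.72 ± 0.40 (adjusted p 0.778). None of these passed the test. Without control male 1 at 30 °C the temperature effect was 0.99, with an adjusted p of 0.13. Among the Ai39 x BAC-AT1A-Cre mice alone it was 0.91 (adjusted p 0.409), and with a term for Cre it was 1.20 (adjusted p 0.0524).

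Malat1, whose gene lies next to Neat1, did not pass in any of the 10 comparisons. It had a median of 585 CPM at 22 °C and 679 CPM at 30 °C, and its log2 fold change was -0.25 ± 0.11 (adjusted p 0.294). Of 21 paraspeckle protein genes, among them Nono, Sfpq and Pspc1, none passed with temperature, their median log2 fold change was -0.03, and the range was -0.30 to 0.28. Of 17 nuclear speckle protein genes none passed either (median -0.03). The summed level of 7 stellate cell and fibroblast markers was 88.5 to 306 CPM (median 160) at 22 °C and 38.2 to 201 CPM (median 117) at 30 °C, and 7 of 7 had a positive log2 fold change, none of which passed. The medians at 22 °C and 30 °C were 201 and 95.2 CPM in ablated mice but 144 and 146 CPM in control mice. The 7 sinusoidal endothelial markers summed to 215 to 318 CPM (median 252) at 22 °C and 85.4 to 256 CPM (median 213) at 30 °C. Their part in the Neat1 result was not tested.

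9130016M20Rik is an RNA of unknown function on chr19:31927484-31929761 (GRCm39), downstream of A1cf, the gene of a cofactor of apolipoprotein B mRNA editing. At 22 °C the 12 livers lay between 166 and 222 CPM (median 181), and at 30 °C between 161 and 365 CPM (median 238). Males at 30 °C had 251, 256 and 291 CPM when ablated and 365 and 324 CPM as controls, each above the highest liver at 22 °C. Females at 30 °C lay between 161 and 260 CPM, a range that overlaps that of 22 °C. The log2 fold change was -0.42 ± 0.09 (adjusted p 0.0253, edgeR), with 11 of 12 livers on that side, and it was -0.60 ± 0.13 in controls (adjusted p 0.0721) and -0.24 ± 0.12 in ablated mice (adjusted p 0.524). The difference of the temperature effect between the sexes, females minus males, was 0.58 ± 0.18 and did not pass (adjusted p 0.219). For A1cf itself the log2 fold change was -0.13 ± 0.11 (adjusted p 0.572). The call on 9130016M20Rik ended when any of 4 libraries was left out, and without control male 1 at 30 °C its log2 fold change was -0.40. In edgeR the call also ended with sex as an additive term (-0.39, adjusted p 0.0615) and with a term for Cre (-0.43, adjusted p 0.0817). It ended with a replicate block too (-0.43, adjusted p 0.0613). Among the Ai39 x BAC-AT1A-Cre mice alone the log2 fold change was -0.36 (adjusted p 0.414).

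Gm3734, a predicted gene of unknown function, was close to absent in 1 group of mice. At 22 °C ablated females had 1.15, 1.72 and 0.332 CPM, ablated males 20.6, 12.9 and 45.1 CPM, control females 24.6, 28.6 and 21.1 CPM, and control males 38.7, 40.9 and 44.8 CPM. At 30 °C ablated females had 22.7, 11.8 and 21.6 CPM, ablated males 24.3, 34.7 and 31.5 CPM, control females 19.1, 61.4, 47.9 and 18.1 CPM, and control males 49.9 and 26.4 CPM. The 3 ablated females at 22 °C lay below every other liver, the lowest of which had 11.8 CPM. In control mice the temperatures overlapped, with 21.1 to 44.8 CPM at 22 °C and 18.1 to 61.4 CPM at 30 °C.

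**Figure D2:**
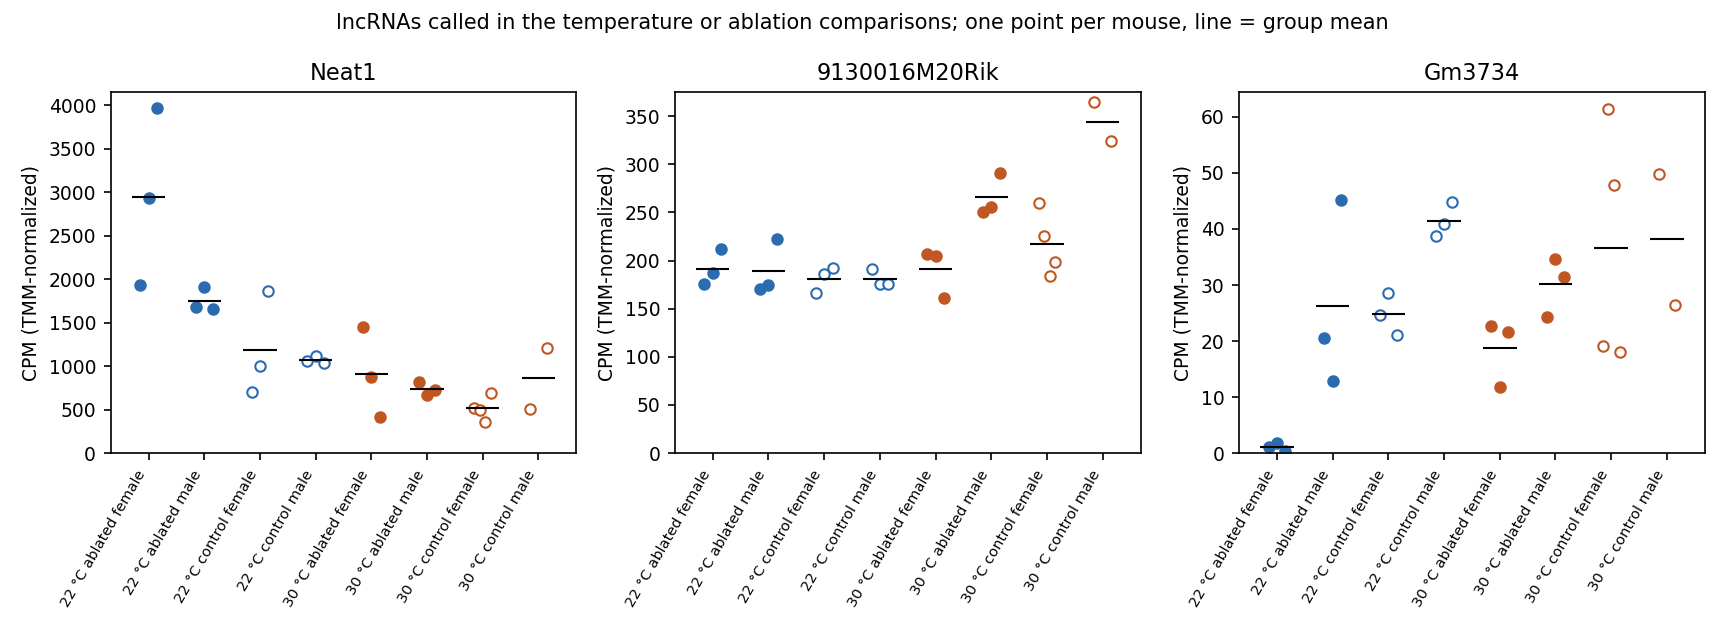
Normalised CPM (y axis, from 0) of Neat1, 9130016M20Rik and Gm3734 in each mouse, by group. Filled points are ablated mice, open points controls, blue 22 °C, orange 30 °C, and lines are group means. Neat1 is highest in ablated females at 22 °C (1930 to 3970 CPM), 9130016M20Rik lies at 251 to 365 CPM in males at 30 °C, and Gm3734 is near 0 only in ablated females at 22 °C (0.332 to 1.72 CPM).

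Ablation was tested at each temperature and over both. At 22 °C, 1 of the 208 lncRNAs was called, Gm3734, beside 0.094% of all genes tested. At 30 °C no lncRNA and no gene at all was called (0.0%). By edgeR, 14 of the 208 lncRNAs had an unadjusted p under 0.05 (6.73%, beside 6.96% of all genes). DESeq2 and limma voom called 0 there, and edgeR called 7 without control male 2 at 30 °C, beside 3.63% of all genes. Over both temperatures Gm3734 was again the 1 lncRNA called, beside 0.0445% of all genes, and 9 were called without control male 2 at 30 °C, beside 2.88% of all genes. The median log2 fold change of the 208 was -0.05 at 22 °C, -0.01 at 30 °C and -0.02 over both, against 0.02, 0.05 and 0.04 for all genes. Of 7 Kupffer cell and macrophage markers, 7 had a positive log2 fold change with ablation over both temperatures (median 0.30) and none passed. They summed to 74.1 to 283 CPM (median 186) in ablated mice and 59.1 to 260 CPM (median 180) in control mice, and their part in the lncRNA results was not tested.

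Markers of other cell types at 22 °C were read the same way. The 5 cholangiocyte markers each had a positive log2 fold change with ablation (median 0.68) and summed to 56.8 to 244 CPM (median 163) in ablated mice, against 56.7 to 89.9 CPM (median 80.9) in control mice. The 7 stellate cell markers were positive as well (median 0.50), with sums of 130 to 306 CPM (median 201) in ablated mice and 88.5 to 167 CPM (median 144) in control mice. Of 6 lymphocyte markers 5 were positive (median 0.72), with sums of 10.5 to 27.4 CPM (median 20.5) in ablated mice and 7.69 to 19.4 CPM (median 12.7) in control mice. The 4 adipocyte markers, of which 1 was tested, summed to a median of 13.1 CPM in ablated mice (lowest 4.73) and 7.21 CPM in control mice (lowest 3.61). At 30 °C the medians of ablated and control mice were 95.2 and 146 CPM for the stellate list and 132 and 112 CPM for the cholangiocyte list. They were 12.5 and 13.5 CPM for the lymphocyte list and 5.87 and 5.34 CPM for the adipocyte list. The ranges overlap in each list, none of the markers tested passed, and their part in the Gm3734 result was not tested.

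For Gm3734 the ablation effect at 22 °C was -2.62 ± 0.40 (SE, log2 scale), with an adjusted p of 0.00997 by edgeR and 5 of 6 ablated livers below the mean of the controls of the same sex. At 30 °C the effect was -0.65 ± 0.37 (adjusted p 0.768), and over both temperatures -1.63 ± 0.27 (adjusted p 0.0374, edgeR). Without control male 1 at 30 °C the effect over both temperatures was -1.50. The ablation effect at 22 °C minus that at 30 °C was -1.97 ± 0.55 and between the sexes, females minus males, -2.27 ± 0.55. Neither difference passed, with adjusted p of 0.529 and 0.309. The temperature effect over all mice was -1.20 ± 0.27 (adjusted p 0.0494). It ended when any of 21 of the 24 libraries was left out, and the ablation effect over both temperatures ended without any of 18. The effect at 22 °C stayed called without each of the 12 libraries compared, but not under limma voom (-2.85, adjusted p 0.184). In edgeR the call was lost with sex as an additive term (-1.80, adjusted p 0.495) and with a term for Cre (-2.06, adjusted p 0.752). Among the Ai39 x BAC-AT1A-Cre mice alone, with sex additive in edgeR, the call was lost too (-1.96, adjusted p 0.448). Its neighbour Eif1a, a translation initiation factor gene, had an ablation effect of 0.01 over both temperatures (adjusted p 1.00).

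Within ablated mice the temperature comparison called no lncRNA, beside 0.0346% of all genes. By edgeR, 36 lncRNAs had an unadjusted p under 0.05 (17.3%, beside 9.78% of all genes). The 9.78% covers genes of lower counts too, and no share for genes of like counts was computed there. DESeq2 called 8 there and limma voom none, without a share of all genes to set beside these counts. The lowest p belonged to 0610031O16Rik, which lies across the alcohol dehydrogenase gene Adh7. It had 12.1, 13.9 and 19.1 CPM in ablated females and 14.4, 14.6 and 19.3 CPM in ablated males at 22 °C, against 27.1, 26.2 and 25.7 CPM in ablated females and 34.6, 29.6 and 28.5 CPM in ablated males at 30 °C. The ranges do not overlap, and the log2 fold change was -0.87 ± 0.18, with an adjusted p of 0.051 that just missed the threshold. In control mice it was -0.11 ± 0.18 (adjusted p 0.873), and its ablation effect at 22 °C minus that at 30 °C was -0.76 ± 0.25 (adjusted p 0.54). Adh7 itself was lower at 22 °C over all mice (log2 fold change -0.57 ± 0.09, adjusted p 0.0134). The lncRNA and Adh7 overlap, so their reads may not be separate.

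For Gm3734 the change there was -2.19 ± 0.40 (adjusted p 0.0563). Other lncRNAs of low p within ablated mice were 2310001H17Rik, with 13.3 to 18.7 CPM at 22 °C against 19.4 to 29.8 CPM at 30 °C (log2 fold change -0.66 ± 0.15, adjusted p 0.0879), and B430119L08Rik, with 2.49 to 6.33 CPM at 22 °C against 4.87 to 34.7 CPM at 30 °C (-2.12 ± 0.51, adjusted p 0.154). In control mice no lncRNA was called either, beside 0.0346% of all genes. By edgeR, 19 had an unadjusted p under 0.05 (9.13%, beside 12.6% of all genes). DESeq2 called 2 and limma voom 1, again without a share of all genes. Without control male 2 at 30 °C, edgeR called 8, beside 7.23% of all genes. After 9130016M20Rik, the lowest p were those of Chn1os3, an RNA antisense to Chn1 (0.73 ± 0.21, adjusted p 0.179), 5033403H07Rik (0.60 ± 0.18, adjusted p 0.206), Brip1os (-0.48 ± 0.15, adjusted p 0.221) and Gm32461 (-0.60 ± 0.22, adjusted p 0.268). The test of a different ablation effect at the 2 temperatures called no lncRNA and no gene (0.0%). By edgeR, 18 lncRNAs had an unadjusted p under 0.05 (8.65%, beside 7.0% of all genes), and DESeq2 and limma voom called 0. The lowest p was that of Chn1os3 (-0.98 ± 0.29, adjusted p 0.529), and 2 were called without control male 2 at 30 °C, beside 2.06% of all genes. At 30 °C the lowest p for ablation were those of 5033403H07Rik (0.64 ± 0.18, adjusted p 0.537), Gm3235 (-0.64 ± 0.20, adjusted p 0.634) and Gm27216 (0.45 ± 0.17, adjusted p 0.693).

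**Figure D3:**
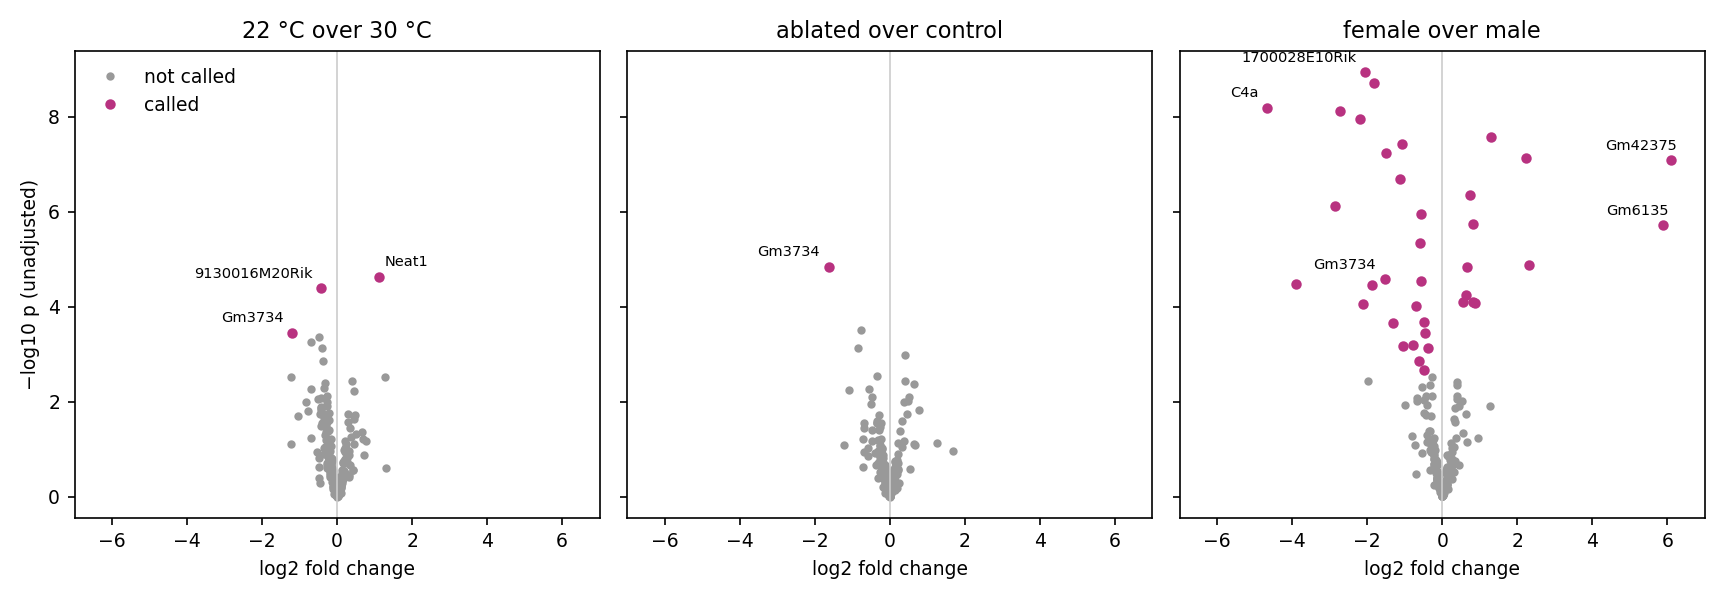
Log2 fold change (x axis) against the unadjusted −log10 p (y axis) of the 208 lncRNAs for temperature, ablation and sex, each over all mice. Pink points passed an adjusted p of 0.05 over all genes tested: 3 for temperature, 1 for ablation and 37 for sex.

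Grouped by known role, the lncRNAs that carry other RNAs in their introns did not pass with temperature or ablation. Of 10 snoRNA host genes, whose spliced introns release the guides of ribosomal RNA modification, 8 had a negative log2 fold change at 22 °C and none was called (median log2 fold change -0.18, against 0.04 for all genes). Gas5 averaged 58.3 ± 12.3 CPM at 22 °C and 69.6 ± 6.34 CPM at 30 °C (SD, n = 12 each), which is -0.26 ± 0.10 on the log2 scale (adjusted p 0.173). Snhg1 had a median of 13.3 CPM at 22 °C and 19.2 CPM at 30 °C (-0.42 ± 0.16, adjusted p 0.192). Snhg17 had 34.2 ± 7.43 CPM at 22 °C and 30.6 ± 5.66 CPM at 30 °C (0.19 ± 0.11, adjusted p 0.42). The 13 proteins of the snoRNA particles had a median of -0.11 with none called. The host genes' median for ablation over both temperatures was -0.07.

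The 3 microRNA host genes measured were Mir22hg, Mir99ahg and Dleu2, the host of miR-15a and miR-16. None passed with temperature or ablation: Mir22hg averaged 74.0 ± 22.8 CPM at 22 °C and 85.8 ± 19.3 CPM at 30 °C (-0.26 ± 0.11, adjusted p 0.25). Of 6 nuclear architectural RNAs only Neat1 passed with temperature. The 3 RNAs antisense or divergent to liver transcription factor or enzyme genes were Hnf4aos, Hnf1aos1 and 0610005C13Rik, which lies across the branched-chain aminotransferase gene Bcat2. Their log2 fold changes with temperature were -0.05 ± 0.20, 0.00 ± 0.15 and -0.02 ± 0.09, and none passed with ablation. The 17 nonsense-mediated decay factors, which limit the level of many snoRNA host RNAs, had no call with temperature or ablation.

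Sex was the condition that separated the lncRNAs most often. Between 13 females and 11 males, 37 of the 208 were called by edgeR, 12 higher and 25 lower in females. That is 17.8% of the lncRNAs, beside 5.54% of all genes tested (2.97% higher, 2.57% lower) and 8.64% of protein-coding genes with the same minimum mean count. Of the 37, 31 were called in the same direction under each of 31 alternatives, each library left out in turn among them. The sexes did not overlap in 7 of the 208, beside 0.554% of all genes tested. The 37 are described first where the sexes did not overlap, then by their place beside coding genes.

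Gm42375 was nearly confined to females, with 7.88 to 25.6 CPM (mean 15.8) in females and 0 to 1.45 CPM (mean 0.344) in males. Its log2 fold change was 6.09 ± 0.67 (adjusted p 1.21e-05, edgeR), a fitted value that rests on 6 male libraries with no read. The gene lies on chr7:26003846-26006711 (GRCm39, minus strand) across the start of Cyp2a4, a steroid 15-alpha-hydroxylase gene known to be higher in female mouse liver, and in RefSeq (GRCm38.p6) the starts of both genes are 20 bases apart. Cyp2a4 itself was higher in females by 7.66 ± 0.68 on the log2 scale (adjusted p 1.11e-06). The transcripts overlap on opposite strands, so their reads may not be separate.

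Gm6135, which stands far from any coding gene on chr3:133494950-133497318, had 2.70 to 32.5 CPM in females and 0 to 2.31 CPM in males (5.88 ± 0.80, adjusted p 0.000167). Gm22146, antisense to Fkbp5, the gene of a glucocorticoid receptor co-chaperone, had 5.70 to 18.8 CPM in females and 0.394 to 4.34 CPM in males (2.22 ± 0.29, adjusted p 1.1e-05). Fkbp5 was higher in females as well (0.73, adjusted p 0.0328). Gm29571, the RNA with 2 TTCNNNGAA matches shown above, had 8.77 to 18.3 CPM in females and 2.98 to 7.49 CPM in males (1.29 ± 0.18, adjusted p 4.95e-06), while Smlr1, whose start is 50 bases away on the other strand, did not pass (-0.22, adjusted p 0.202). In these 4 RNAs the lowest female lay above the highest male. 2310015A16Rik, at 4.13 to 29.4 CPM in females and 0 to 7.88 CPM in males, overlapped (2.30 ± 0.38, adjusted p 0.000834).

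On the other side, C4a had 6.18 to 11.8 CPM (median 10.3) in females and 16.5 to 968 CPM (median 269) in males. C4a is the mouse sex-limited protein gene, a duplicate of the complement gene C4b known for its androgen-dependent expression in many strains, and the deposited annotation gives it the biotype lncRNA. Its log2 fold change was -4.68 ± 0.43 (adjusted p 1.52e-06). The males were far from uniform: ablated males at 22 °C had 111, 181 and 283 CPM, control males at 22 °C had 968, 284 and 223 CPM, ablated males at 30 °C had 16.5, 41.7 and 309 CPM, and control males at 30 °C had 421 and 269 CPM. C4b, of which C4a is a near copy, lay between 777 and 2110 CPM, so reads of the pair may have been split and the level of C4a is uncertain. Neither temperature (0.43 ± 0.38, adjusted p 0.641) nor ablation (-0.59 ± 0.38, adjusted p 0.715) passed for C4a.

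1700028E10Rik had the lowest p of all lncRNAs, with 9.59 ± 4.06 CPM in females and 39.7 ± 10.8 CPM in males (SD, n = 13 and 11, log2 fold change -2.05 ± 0.20, adjusted p 4.17e-07). C730027H18Rik had 9.25 ± 4.68 CPM in females and 32.8 ± 5.78 CPM in males (-1.83 ± 0.19, adjusted p 6.39e-07). In both, the highest female lay below the lowest male. Gm40787 averaged 2.64 ± 2.12 CPM in females and 14.3 ± 4.72 CPM in males (-2.72 ± 0.30, adjusted p 1.71e-06). Gm31583 had 9.62 to 32.2 CPM in females and 27.5 to 167 CPM in males (-2.20 ± 0.22, adjusted p 2.35e-06), and Gm30262 averaged 40.7 ± 15.9 CPM in females and 105 ± 36.6 CPM in males (-1.49 ± 0.18, adjusted p 8.91e-06). BC049987 had 1.64 to 47.3 CPM (median 2.79) in females and 8.35 to 59.1 CPM (median 32.7) in males (-2.87 ± 0.37, adjusted p 7.77e-05). The female at 47.3 CPM was 1 ablated mouse at 22 °C.

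ENSMUSG00000120841, known only by its identifier, had 0 to 6.31 CPM in females and 2.89 to 72.4 CPM in males (-3.90 ± 0.69, adjusted p 0.00182). The remaining called RNAs moved less. Dleu2 was higher in females, with 50.3 ± 9.20 CPM in females and 34.3 ± 8.38 CPM in males (0.55 ± 0.12, adjusted p 0.00355). Mir22hg, the host of the microRNAs printed above, was lower, with 70.2 ± 21.7 CPM in females and 91.3 ± 15.4 CPM in males (-0.46 ± 0.11, adjusted p 0.011). The host transcript says nothing of the mature microRNA, which this assay does not capture. AW112010 was higher in females, with 35.7 to 99.7 CPM in females and 24.7 to 51.5 CPM in males (0.67 ± 0.13, adjusted p 0.000935). Gm3734 was lower (-1.54 ± 0.27, adjusted p 0.0015), a difference that the ablated females at 22 °C described above enter. Of the snoRNA host genes none passed, and Neat1 and Malat1 did not differ detectably (0.12 ± 0.20, adjusted p 0.877, and -0.15 ± 0.11, adjusted p 0.555).

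**Figure D4:**
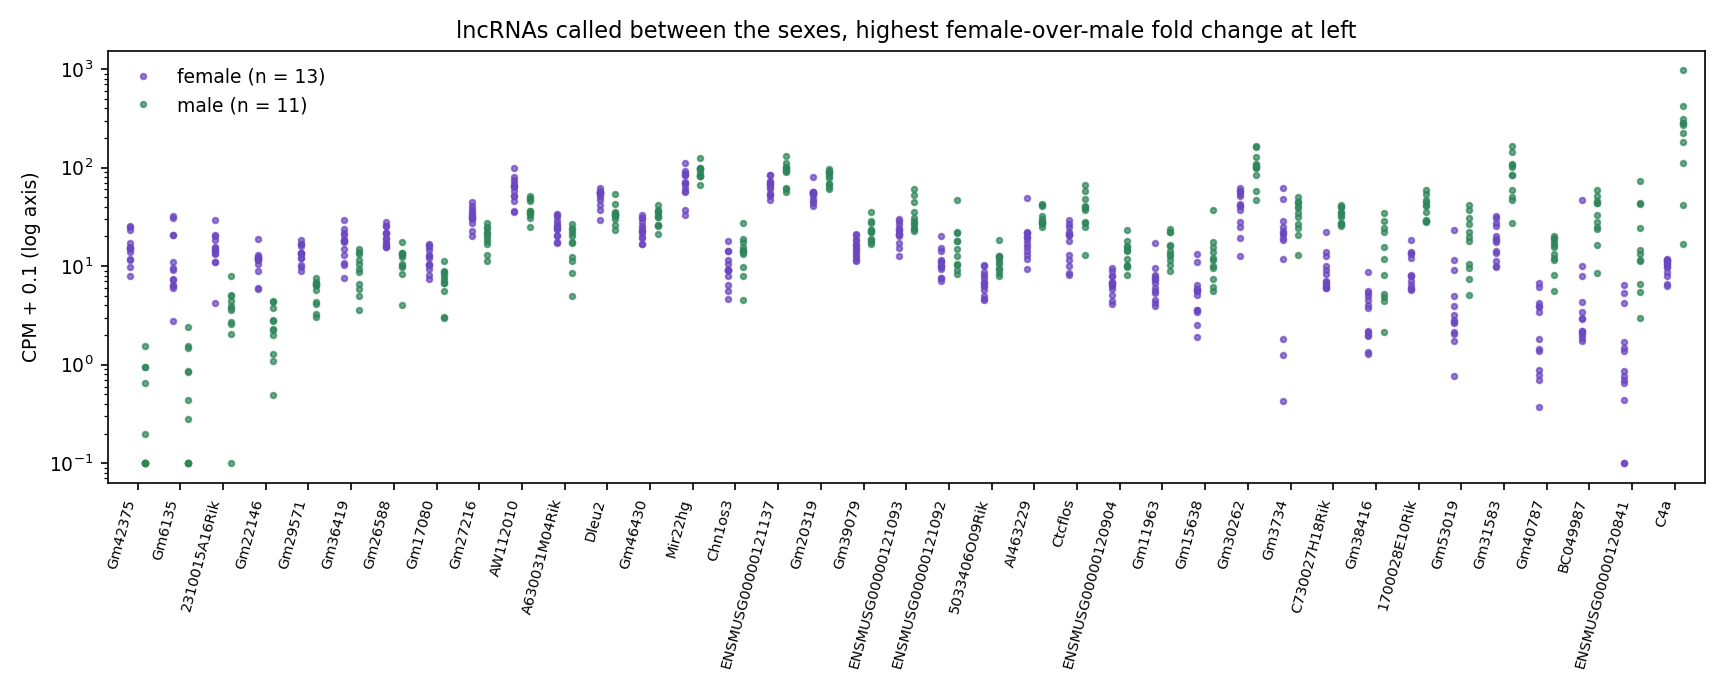
CPM plus 0.1 (log axis) of the 37 lncRNAs called between the sexes, 1 point per mouse, females (n = 13) left of males (n = 11) within each RNA. RNAs are ordered by log2 fold change from Gm42375 (6.09) at the left to C4a (-4.68) at the right, and the sexes do not overlap in 7 of them.

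Among cell type markers, none of the 7 Kupffer cell and macrophage markers passed, with a positive log2 fold change for 6 of 7 (median 0.55), nor did any of the 7 stellate cell markers (median -0.11). Of 4 erythroid genes Alas2, which makes heme in red cell precursors, was lower in females (-2.42 ± 0.13, adjusted p 1.09e-14, edgeR). The 4 summed to 123 to 694 CPM (median 266) in females and 122 to 782 CPM (median 300) in males. Of 8 hepatocyte genes Apoa1 (-0.39) and Serpina1c (-0.71) were lower in females. The 8 summed to a median of 84500 CPM in females and 87700 CPM in males, with overlapping ranges. The part of these cell types in the lncRNA differences was not tested.

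Many of the sex-different lncRNAs lie beside a coding gene that differs as well. For 34 of the 37 the nearest protein-coding gene was tested, and for 10 of them it was called, each time in the same direction as the lncRNA. Among the lncRNAs not called by sex the nearest gene was called for 23 of 168, and the difference between these shares was not tested. Over all 202 pairs the Pearson correlation of the log2 fold changes was 0.41 for sex, 0.27 for temperature and 0.13 for ablation, a description across pairs that share their libraries and, where genes overlap, their reads. Of the 208 lncRNAs, 89 overlap a protein-coding gene, and 53 lie head to head with one within 2000 bases.

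The 10 pairs include lncRNAs inside or across the coding gene and lncRNAs at a distance. Gm31583 lies 95807 bases from Bcl6, a repressor gene known to be higher in male mouse liver, which was lower in females too (-1.73, adjusted p 6.64e-05). Gm40787 lies 12504 bases from Rassf3 (-1.10, adjusted p 6.76e-09). ENSMUSG00000120904 (-1.07 ± 0.15) lies 1526 bases from the alcohol dehydrogenase gene Adh4 on the same strand (-0.73, adjusted p 7.16e-07). BC049987 stands 967 bases from the trehalase gene Treh (-3.42, adjusted p 0.0211). Gm53019 is antisense to Cmah, which makes a sialic acid form (-0.81, adjusted p 4.87e-06), Gm20319 to the interleukin-1 receptor accessory gene Il1rap (-0.57, adjusted p 0.00253), and Gm17080 to the nucleoside transporter gene Slc29a1 (0.68, adjusted p 0.000372). C4a and its neighbour Stk19 (-0.52, adjusted p 0.00158) complete the set with Gm42375 and Gm22146. For Gm53019, Gm20319, Gm17080, Gm42375 and Gm22146, which overlap their partner on the opposite strand, the shared direction may rest on shared reads, which was not tested.

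**Figure D5:**
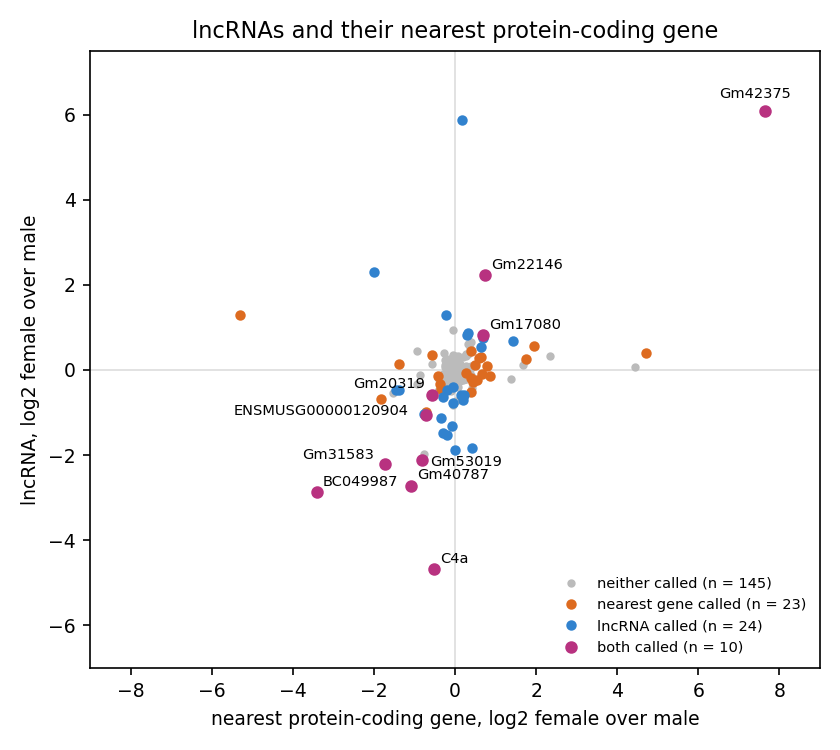
Log2 fold change, female over male, of each lncRNA (y axis) against that of its nearest protein-coding gene (x axis), 202 pairs. In the 10 pairs where both were called (pink) they share a direction. The lncRNA alone was called in 24 pairs, the coding gene alone in 23, and neither in 145.

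Promoter windows of the called RNAs were searched for TTCNNNGAA, which reads the same on both strands, and for TATAAA on both strands. TTCNNNGAA was found in 8.3% of all 32851 RefSeq windows, in 7.02% of the 171 windows of the lncRNAs, in 1 of 9 windows of lncRNAs higher in females (Gm29571), and in 4 of 21 windows of lncRNAs lower in females, 3 of them alternative starts of Gm30262. In the 141 windows of lncRNAs not called by sex the share with TTCNNNGAA was 4.96%. TATAAA was found in 13.6% of all windows, in 20.5% of the windows of the lncRNAs and in 22.0% of the 141. It was found in 2 of 9 windows of lncRNAs higher and in 2 of 21 windows of lncRNAs lower in females. The counts are small, and a match is not a bound site.

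One lncRNA changed with temperature differently in the sexes. 4930404H11Rik, on chr12:71535059-71602907, had in ablated females 13.5, 16.4 and 14.3 CPM at 22 °C and 5.84, 6.17 and 7.74 CPM at 30 °C, and in control females 6.31, 6.79 and 15.5 CPM at 22 °C and 7.25, 4.56, 5.29 and 7.17 CPM at 30 °C. In ablated males it had 5.35, 4.17 and 6.85 CPM at 22 °C and 9.98, 31.8 and 18.1 CPM at 30 °C, and in control males 7.24, 9.11 and 11 CPM at 22 °C and 33.2 and 11 CPM at 30 °C. Most females were higher at 22 °C than at 30 °C, and most males were lower. The difference of the log2 temperature effects, females minus males, was 2.48 ± 0.39 (adjusted p 0.0124, edgeR), beside 0.0198% of all genes called. It did not pass under limma voom (adjusted p 0.0886) or without control male 1 at 22 °C (adjusted p 0.0507) or ablated male 2 at 22 °C (adjusted p 0.0547), and 6 lncRNAs were called without control male 2 at 30 °C, beside 2.42% of all genes. The 3 highest males, at 31.8, 18.1 and 33.2 CPM, were the 3 of the 5 males at 30 °C that were not of the line Ai39 x BAC-AT1A-Cre, and the other 2 had 9.98 and 11 CPM. Line and sex-specific temperature cannot be told apart in those males.

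For the ablation effect, no lncRNA and no gene differed between the sexes (0.0%). By edgeR, 34 lncRNAs had an unadjusted p under 0.05 (16.3%, beside 7.02% of all genes). The 7.02% covers genes of lower counts too, and no share for genes of like counts was computed. DESeq2 called 5, a count given without a share of all genes. Without control male 2 at 30 °C, edgeR called 3, beside 2.38% of all genes. The lowest p were those of A530020G20Rik (1.74 ± 0.39, adjusted p 0.249) and A630031M04Rik (1.00 ± 0.26, adjusted p 0.304), followed by that of Gm3734 given above.

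The locus that carries the Ai39 and Ai9 insertions has its own lncRNA, Gt(ROSA)26Sor, named after its values were seen. It lay between 10.5 and 42.0 CPM in the 19 Ai39 x BAC-AT1A-Cre mice, at 24.7 and 33.8 CPM in the 2 Ai9 x BAC-AT1A-Cre mice and between 11.9 and 18.2 CPM in the 3 BAC-AT1A-Cre mice, whose line name holds neither insertion. Its log2 fold change was 0.00 ± 0.16 with temperature and -0.02 ± 0.16 with ablation, and neither passed (adjusted p 1.00 for both).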

How the data were processed

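Liver poly-A RNA of 24 mice was sequenced, 1 library a mouse. Per the submitters' processing notes, CASAVA, HISAT2 and DESeq2 were used with the build GRCm39, without versions. The authors deposited, for each comparison of theirs, gene counts (unnormalized), FPKM (scaled by gene length and by library size) and a signal of counts divided by size factors. Gene length, of no unit checked here, came from the same deposited tables. No source used here says whether counting used strand. The 3 tables were joined by gene, and 40326 values absent from a table were set to 0, so a filter of the authors on low genes would appear as 0. Counts and FPKM that occurred in more than 1 table were equal.

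The counts were scaled by TMM and filtered by edgeR's filterByExpr, which left 20213 genes, and fitted with edgeR 4.0.16 in R 4.3.3 as 8 group means with its quasi-likelihood F test in the robust form (residual degrees of freedom 16, Benjamini-Hochberg adjustment over all genes tested). Contrasts weight the groups equally, SE is the log2 fold change divided by the square root of F, and CPM are TMM-normalized. DESeq2 1.42.0 and limma 3.58.1 (voom) served as alternatives, with other scalings, filters, terms and left-out libraries. The script was tested on simulated data. The 21691653 to 34851108 reads per library set the precision. The labels give each library as its own mouse, and replicate numbers did not pair the mice.

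Members and lists were chosen with earlier results of these data known. Named lncRNAs are the 10 of highest mean, then, for temperature and for ablation at 22 °C and over both temperatures, up to 12 rises and 12 falls among those called (5 of lowest p where none), and elsewhere 5 and 5 (3 of lowest p where none), with members of role lists called with temperature or ablation and up to 4 called genes of each protein list. Role list members, pairs with called neighbours and other lncRNAs named beyond this were chosen after their values were seen. RNAs with a near-identical copy are uncertain. Promoter and microRNA sequences are RefSeq's (GRCm38.p6), and the Neat1 transcripts GENCODE's (GRCm38). Gene coordinates are those of the deposited tables (GRCm39).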

Additional observations from a re-analysis of the deposited data

Results flagged for a closer look

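Among 20 named lncRNAs, 80 groups of 6 mice of 1 treatment and temperature were examined for a single library far from the rest by Dixon's criterion, and 8 stood out. Chance gives about 1 in 20. Females and males share these groups, so a difference between the sexes enters them. Ablated female 3 at 30 °C had 802 CPM of BC024386, below the next value of 1220 CPM. Control female 3 at 22 °C had 1860 CPM of Neat1, above the next value of 1110 CPM, 346 CPM of Malat1, below the next value of 574 CPM, and 151 CPM of 4930581F22Rik, above the next value of 101 CPM. That library also held the highest mitochondrial share of the study, 37.3%, whose part in these values was not tested. Control female 2 at 30 °C had 298 CPM of 0610005C13Rik, above the next value of 258 CPM. Ablated male 2 at 30 °C had 361 CPM of 1810019D21Rik, above the next value of 207 CPM. For C4a, control male 1 at 22 °C had 968 CPM, above the next value of 284 CPM, and ablated male 3 at 30 °C had 309 CPM, above the next value of 41.7 CPM.

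The temperature effect on 4930404H11Rik differed between the sexes, by 2.48 on the log2 scale (females minus males), as tested in the fit over all genes.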

How the results depend on the processing

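The counts of called lncRNAs depended on the processing most where few were called. Without the filter on low counts, which brings more genes into the fit, 8 lncRNAs were called for temperature in control mice, 26 in ablated mice and 33 over all mice, 22 for ablation at 22 °C, 5 at 30 °C and 26 over both temperatures, 10 for the ablation-by-temperature difference, 57 for sex, 20 for the difference of the temperature effect between sexes and 22 for that of the ablation effect. DESeq2 called 2, 8 and 9 for temperature in control, ablated and all mice, 7 and 3 for ablation at 22 °C and over both temperatures, and 10 and 5 for the differences of the temperature and ablation effects between sexes. limma voom called 1 for temperature in control mice, 0 for ablation over both temperatures and 0 for the difference of the temperature effect between sexes. In ablated mice, temperature gave 1 call with DESeq2 size factors, 1 with nuclear library sizes and 1 with sex as an additive term. That term gave 1 for temperature over all mice and 0 for ablation at 22 °C and over both temperatures. A term for Cre gave 0 in these 3, and the Ai39 x BAC-AT1A-Cre mice alone gave 0 for temperature over all mice. With a change of 1 or more on the log2 scale required too, 20 lncRNAs were called by sex. The fit without the filter also had other SE at nearly the same fold changes. For temperature over all mice they were 0.13 against 0.20 for Neat1, 0.12 against 0.27 for Gm3734 and 0.11 against 0.09 for 9130016M20Rik. The cause of these moves was not tested. Shares of all genes are not given beside these counts, so the counts do not show whether lncRNAs moved more than other genes.

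With each library left out in turn, the calls ranged from 0 to 8 for temperature in control mice, 0 to 3 in ablated mice and 0 to 16 over all mice, 1 to 4 for ablation at 22 °C, 0 to 7 at 30 °C and 0 to 9 over both temperatures, 0 to 2 for the ablation-by-temperature difference, 35 to 45 for sex, and 0 to 6 and 0 to 3 for the differences of the temperature and ablation effects between sexes. Leaving out 1 control male at 30 °C leaves the other alone in its group, where it is assumed to vary like the other groups. The number of all genes called also changed with the library left out, so these ranges are not particular to the lncRNAs.

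Replicate numbers did not pair the mice (median correlation of deviations -0.007 for the same number and 0.007 for different numbers). A replicate block gave 1 call for temperature over all mice, 2 for ablation over both temperatures and 1 for the difference of the ablation effect between sexes. For the 35 results on single lncRNAs, 861 of 959 alternatives kept direction and side of the threshold, 66 lost the call, 32 gained one and 0 reversed. A result that was not called counts as kept where it stayed uncalled. Gm3734 lost its call in 26 of 33 alternatives for temperature over all mice. It lost it in 22 of 33 for ablation over both temperatures and in 4 of 21 at 22 °C. With temperature over all mice, 9130016M20Rik lost its call in 8 of 33 and Neat1 in 3 of 33. For 4930404H11Rik it was 3 of 31. The named sex results lost none. A minimum mean count of 100 gave 378 lncRNAs, 59 called by sex, and of 400 gave 110, 20 called by sex. A total of 6 lncRNAs had 0 reads in at least 1 library.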
